A study of Mus musculus with 12 samples.

Results

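Genes of the NRF2 oxidative stress response were followed in mouse hearts 9 h after transverse aortic constriction (TAC), a surgery that narrows the aortic arch and loads the left ventricle with pressure, or after a sham operation. The set was a list of 10 genes taken by symbol: the transcription factor gene Nfe2l2, which encodes NRF2, its repressor Keap1, and the 8 antioxidant genes Hmox1, Srxn1, Txnrd1, Gclc, Gclm, Nqo1, Sod2 and Slc7a11. Of these 10 genes, 9 had a row among the 13552 genes of the table and all 9 were among the 11240 genes at 1 RPKM (reads on a gene divided by its exon length and by the size of the library) or more in at least 3 mice. Slc7a11 was not analysed here.

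Poly(A) RNA from whole hearts of 12 male mice, labelled C57BL/6 and given as C57BL/6J in the study's methods, was sequenced in 4 groups of 3: wild-type (WT) sham, WT TAC, knock-in (KI) sham and KI TAC. In the KI mice the serine at position 14 of Bcl-xL, an anti-apoptotic protein, is replaced by alanine (S14A). The change is in the germline and therefore in every cell type of the heart, the line went through R1 embryonic stem cells and a cross with CMV-Cre mice before backcrossing to C57BL/6J, and the study's methods give wild-type mice as purchased. For Srxn1 and every other gene, an effect of S14A therefore cannot be told apart from other differences between the KI line and purchased mice. The study describes age-matched young adults and, after its first experiments, homozygous KI mice. The labels give neither age nor zygosity, and each heart sample was treated as 1 mouse.

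NRF2 is held in the cytoplasm by KEAP1, which hands it to a ubiquitin ligase for destruction. Oxidants and electrophiles modify KEAP1, NRF2 then collects in the nucleus, pairs with a small MAF protein and binds antioxidant response elements beside genes for glutathione synthesis, thioredoxin recycling, quinone reduction and haem breakdown. In the heart this programme is known as a defence against oxidative injury, and much of its control lies in NRF2 protein that an mRNA measurement does not see.

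To show what such elements look like beside these genes, RefSeq windows of GRCm38.p6 running from 250 bases before to 50 bases after each transcription start were searched on both strands for the core letters TGACNNNGC. The letters occurred in 12.4% of all 32851 windows and in 14% of the 27025 genes with a window. Windows were at hand for 8 of the 10 listed genes, and 4 of these 8 genes (50%) held the core: Nfe2l2, Gclm, Txnrd1 and Srxn1. Hmox1 and Gclc had no entry. The core can overlap the AP-1 motif TGASTCA, and none of the 7 short stretches below held that motif. A match of letters is a description and not evidence of a bound site. The 4 stretches, with the genes of the small MAF partners Maff, Mafk and Mafg that return below, are written 5′ to 3′ along the gene's strand with 10 bases on either side and the core in capitals, where a core on the opposite strand reads GCNNNGTCA:
Nfe2l2 (chr2:75704885-75704913, minus strand): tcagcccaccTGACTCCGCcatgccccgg
Srxn1 (chr2:152105542-152105570, plus strand): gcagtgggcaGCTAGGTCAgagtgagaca
Txnrd1 (chr10:82859104-82859132, plus strand): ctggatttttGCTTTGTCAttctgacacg
Gclm (chr3:122245413-122245441, plus strand): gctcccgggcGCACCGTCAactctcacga
Maff (chr15:79346499-79346527, plus strand): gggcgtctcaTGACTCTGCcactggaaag
Mafk (chr5:139791513-139791541, plus strand): gatcccggaaGCGGTGTCAgtactgggga
Mafg (chr11:120633751-120633779, minus strand): ctctgcaggaGCACGGTCAacccggcgag
The core lay 240 to 232 bases before the start of Nfe2l2, 92 to 84 bases before 1 of the 3 starts of Txnrd1 and 134 to 126 bases before the start of Gclm, and at bases 29 to 37 of the Srxn1 transcript. The 250 bases before the starts of Txnrd1 and Gclm are given in full, since both hold the core while Txnrd1 passed the test after TAC in both genotypes and Gclm in neither:
Txnrd1 (chr10:82858956-82859205, plus strand): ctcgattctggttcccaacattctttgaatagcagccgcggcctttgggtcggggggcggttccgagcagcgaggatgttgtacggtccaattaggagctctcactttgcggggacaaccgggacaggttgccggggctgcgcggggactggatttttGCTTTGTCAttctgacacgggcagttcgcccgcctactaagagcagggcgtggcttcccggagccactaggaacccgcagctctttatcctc
Gclm (chr3:122245307-122245556, plus strand): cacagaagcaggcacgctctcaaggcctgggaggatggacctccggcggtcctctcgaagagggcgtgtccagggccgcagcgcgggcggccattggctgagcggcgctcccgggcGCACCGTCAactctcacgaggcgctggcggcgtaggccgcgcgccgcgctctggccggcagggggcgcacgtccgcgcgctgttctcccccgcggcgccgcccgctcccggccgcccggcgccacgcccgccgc

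Library depth, recovered from the values, was between 23652257 and 32455244 reads on genes per mouse, so the 9 genes rested on 83 (Hmox1 in KI sham mouse 1) to 12558 (Sod2 in WT sham mouse 1) reads each. Correlations between the mice of a group across genes lay between 0.946 and 0.991. Differences between groups are given as log2 fold changes on log2(RPKM + 1) with a standard error (SE) and a limma p-value adjusted over all 11240 genes by the Benjamini-Hochberg method, and a gene passed the test at an adjusted p under 0.05. That scale understates changes of genes with low levels, such as Hmox1 in sham hearts. As whole heart was sequenced, fewer cells of a type and less RNA per cell cannot be told apart. Comparisons between the groups share mice, so a high or low group enters more than 1 of them.

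In WT hearts TAC raised Hmox1, Txnrd1 and Srxn1 and lowered Sod2. Thus 4 of the 9 genes passed the test, 3 higher and 1 lower, against 11.6% of all genes tested in either direction, 6.96% higher and 4.6% lower. In KI hearts TAC raised Hmox1, Srxn1, Txnrd1 and Gclc, and none of the 9 fell, against 23.3% of all genes in either direction, 8.57% higher and 14.7% lower. Between the 2 TAC groups Hmox1 and Srxn1 were higher in KI hearts and no gene was lower, against 11% of all genes in either direction, 2.92% higher and 8.13% lower. Between the 2 sham groups none of the 9 passed in either direction, against 0.0178% of all genes. The share of all genes called higher depended on scaling: with median-ratio scaling 643 genes were higher and 604 lower in KI hearts between the TAC groups, instead of 328 and 914, and TAC raised 1436 and lowered 1350 genes in KI hearts, instead of 963 and 1657. With quantile normalization the WT comparison gave 751 higher and 809 lower, instead of 782 and 517.

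**Figure D1:**
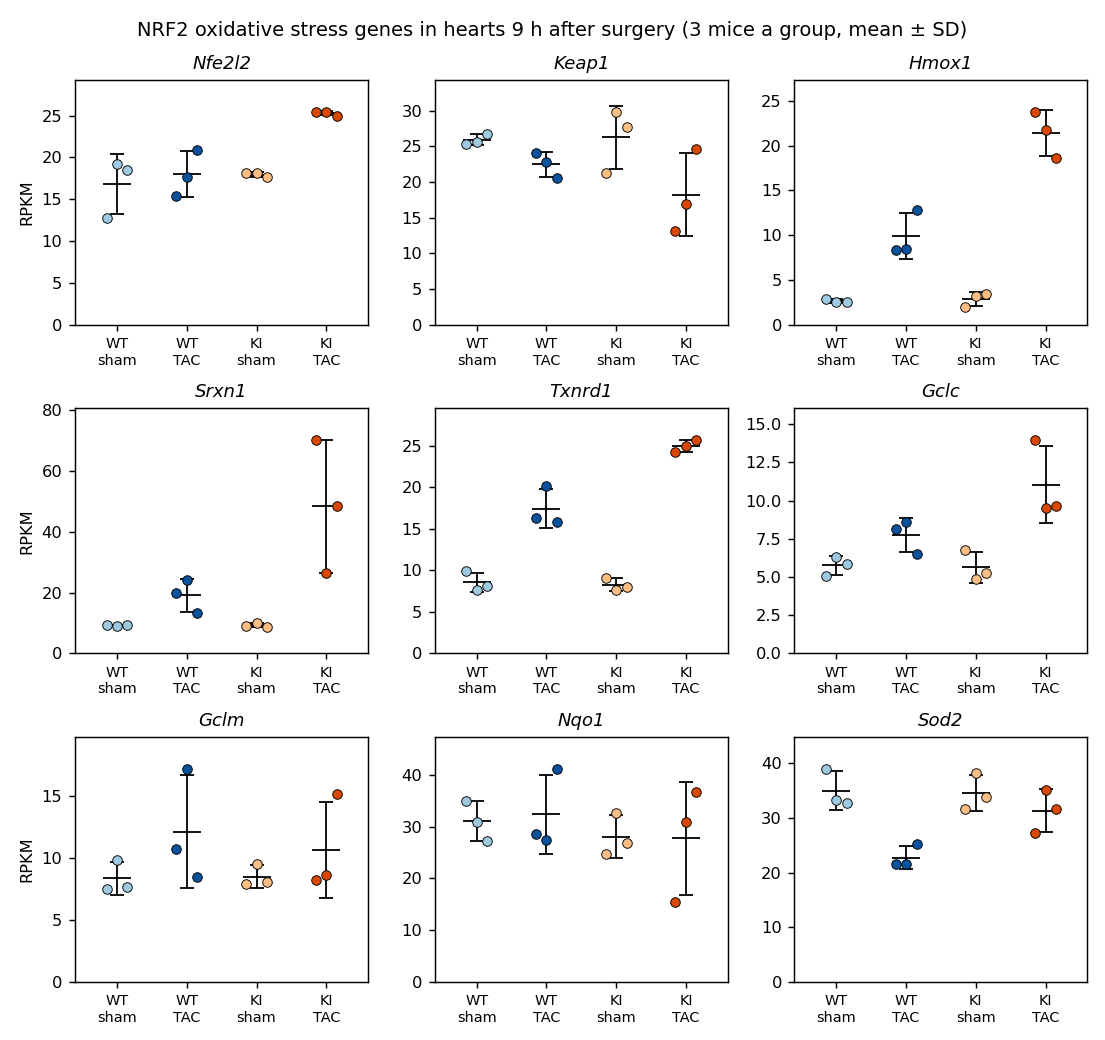
RPKM (vertical axis, from 0, its own scale for each gene) of the 9 genes in each of the 12 mice, with points for mice and black bars for the mean ± SD of 3 mice per group. Hmox1, Srxn1 and Txnrd1 stand higher in all TAC hearts than in any sham heart and highest in KI TAC hearts, while Nqo1 overlaps among all groups and Sod2 is lowest in WT TAC hearts.

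Nfe2l2 (chromosome 2, 75675513 to 75704641, minus strand, GRCm38) encodes NRF2 itself. Its RPKM was 12.7, 19.2 and 18.5 in the WT sham mice, 15.4, 17.6 and 20.9 in the WT TAC mice, 18.1, 18.2 and 17.6 in the KI sham mice, and 25.4, 25.5 and 25.0 in the KI TAC mice. The 3 KI TAC hearts lay above all 9 others and close together, and the other groups overlapped. The log2 fold change was 0.10 in WT hearts (SE 0.18, limma adjusted p = 0.743), 0.47 in KI hearts (SE 0.18, limma adjusted p = 0.0734) and 0.48 between the TAC groups (SE 0.18, limma adjusted p = 0.0955). None of these passed. With median-ratio scaling both KI differences passed, with log2 fold changes of 0.60 (limma adjusted p = 0.0351) and 0.63 (limma adjusted p = 0.0494), and without WT sham mouse 1 the KI TAC difference from KI sham passed as well (limma adjusted p = 0.0464).

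Keap1 (chromosome 9, 21229730 to 21239361, minus strand) encodes the sensor and repressor of NRF2. It was at 25.3, 25.7 and 26.8 RPKM in the WT sham mice, 24.0, 22.9 and 20.6 in the WT TAC mice, 21.3, 29.9 and 27.7 in the KI sham mice, and 13.2, 16.9 and 24.6 in the KI TAC mice. All WT TAC hearts lay under all WT sham hearts, whereas in KI mice the groups overlapped and the KI TAC hearts were the most scattered. The log2 fold change after TAC was −0.20 in WT hearts (SE 0.21, limma adjusted p = 0.569) and −0.54 in KI hearts (SE 0.21, limma adjusted p = 0.0815), and between the TAC groups it was −0.33 (SE 0.21, limma adjusted p = 0.307). Without KI TAC mouse 7 the KI difference passed, at a log2 fold change of −0.76 (limma adjusted p = 0.013). The gene overlaps Gm16754 on the other strand, and the strand setting of the counting is not given in the sources used here.

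Hmox1 (chromosome 8, 75093621 to 75100589, plus strand) encodes haem oxygenase 1, the inducible enzyme that splits haem into biliverdin, iron and carbon monoxide. Its RPKM was 2.90, 2.54 and 2.57 in the WT sham mice and 8.37, 8.41 and 12.8 in the WT TAC mice. It was 1.94, 3.18 and 3.43 in the KI sham mice and 23.8, 21.8 and 18.7 in the KI TAC mice. No TAC heart overlapped a sham heart, and every KI TAC heart was above every WT TAC heart. The ratio of mean RPKM was 3.70 in WT mice and 7.51 in KI mice, with log2 fold changes of 1.54 (SE 0.20, limma adjusted p = 0.000429) and 2.56 (SE 0.20, limma adjusted p = 1.07e-05). KI TAC hearts were 2.17-fold above WT TAC hearts by mean RPKM, a log2 fold change of 1.06 (SE 0.20, limma adjusted p = 0.00869). This last call was lost without WT TAC mouse 7 (log2 fold change 0.97, limma adjusted p = 0.0556), and over all alternatives its adjusted p lay between 0.00682 and 0.0556. Hmox1 had the widest change of the 9 genes after TAC in either genotype on this scale.

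Srxn1 (chromosome 2, 152105516 to 152111376, plus strand) encodes sulfiredoxin, which rescues overoxidized peroxiredoxins. It was at 9.20, 8.92 and 9.40 RPKM in the WT sham mice, 19.9, 24.2 and 13.3 in the WT TAC mice, 8.92, 9.89 and 8.75 in the KI sham mice, and 70.2, 26.5 and 48.5 in the KI TAC mice. The 6 sham hearts lay between 8.75 and 9.89, all TAC hearts were higher, and the KI TAC hearts were above all WT TAC hearts but far apart among themselves. Mean RPKM rose 2.08-fold in WT mice, a log2 fold change of 0.95 (SE 0.29, limma adjusted p = 0.048), and 5.27-fold in KI mice, a log2 fold change of 2.17 (SE 0.29, limma adjusted p = 0.000228). KI TAC hearts were 2.53-fold above WT TAC hearts by mean RPKM, a log2 fold change of 1.23 (SE 0.29, limma adjusted p = 0.0206). The WT call was the least secure of these. It held in 3 of the 12 fits that left out 1 mouse and was lost without any WT sham mouse, without WT TAC mouse 7 or 9, without any KI sham mouse and without KI TAC mouse 7. It was also lost with no minimum (limma adjusted p = 0.0505) and with median-ratio scaling (limma adjusted p = 0.0815), and its adjusted p over all alternatives lay between 0.0151 and 0.152. The call between the TAC groups was lost without WT TAC mouse 7 or 10, without KI TAC mouse 5 and when only those groups were fitted (limma adjusted p = 0.0864), with a range of 0.0118 to 0.0864 over all alternatives.

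Txnrd1 (chromosome 10, 82833951 to 82897712, plus strand) encodes cytosolic thioredoxin reductase, which spends NADPH to keep thioredoxin reduced. It was at 9.89, 7.61 and 8.11 RPKM in the WT sham mice, 16.3, 20.1 and 15.9 in the WT TAC mice, 9.12, 7.61 and 8.04 in the KI sham mice, and 24.3, 25.0 and 25.7 in the KI TAC mice. The order was the same as for Hmox1, with both sham groups low and overlapping, WT TAC hearts higher and KI TAC hearts highest. By mean RPKM TAC raised Txnrd1 2.04-fold in WT mice, a log2 fold change of 0.95 (SE 0.16, limma adjusted p = 0.00267), and 3.03-fold in KI mice, a log2 fold change of 1.49 (SE 0.16, limma adjusted p = 7.21e-05). KI TAC hearts differed from WT TAC hearts by 0.50 on the log2 scale (SE 0.16, limma adjusted p = 0.0571), which did not pass, although no KI TAC heart overlapped a WT TAC heart. It passed with quantile normalization (0.59, limma adjusted p = 0.0307), with median-ratio scaling (0.65, limma adjusted p = 0.0268), at a minimum of 5 RPKM (limma adjusted p = 0.0483) and without WT TAC mouse 9 (0.60, limma adjusted p = 0.0377). Txnrd1 overlaps Eid3 on its own strand and Gm38560 and Gm47073 on the other.

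**Figure D2:**
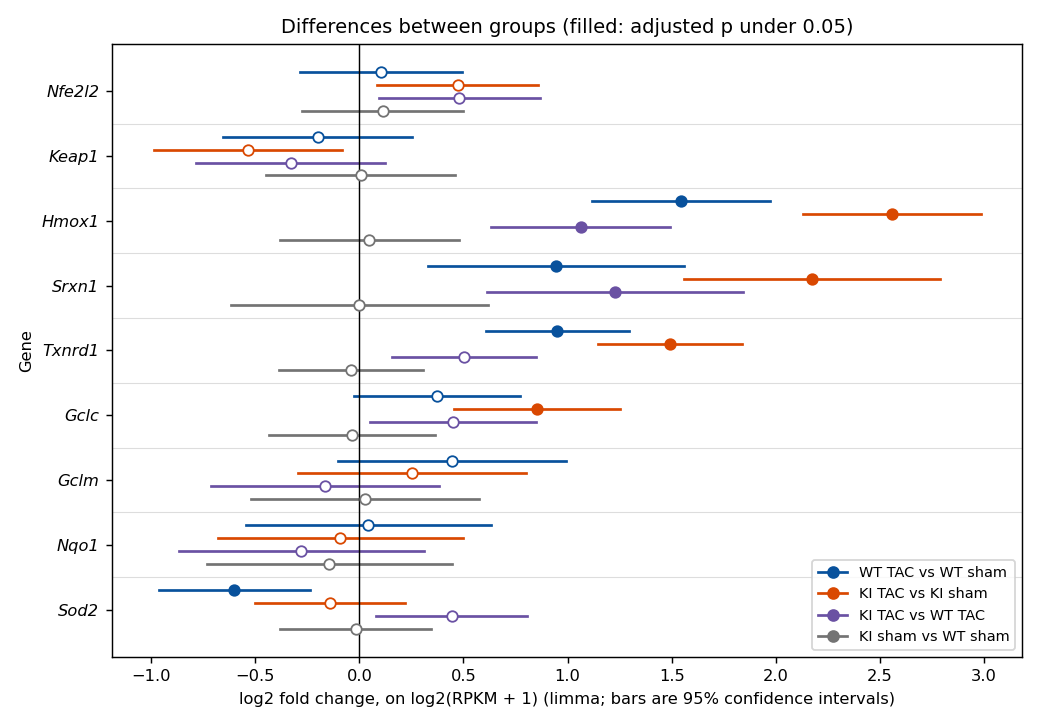
Log2 fold changes on log2(RPKM + 1) (horizontal axis) for the 9 genes in 4 comparisons, with bars for 95% confidence intervals from limma and filled points for an adjusted p under 0.05. Hmox1, Txnrd1 and Srxn1 are filled for TAC in both genotypes, Hmox1 and Srxn1 for KI TAC against WT TAC, and all points of the sham comparison are open and lie between −0.14 and 0.11.

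Glutathione is made from cysteine, glutamate and glycine, and its first step is run by a ligase of a catalytic subunit, from Gclc, and a modifier subunit, from Gclm. Gclc (chromosome 9, 77754535 to 77794485, plus strand) was at 5.07, 6.33 and 5.85 RPKM in the WT sham mice, 8.16, 8.63 and 6.50 in the WT TAC mice, 6.77, 4.86 and 5.25 in the KI sham mice, and 13.96, 9.54 and 9.63 in the KI TAC mice. TAC hearts were above the sham hearts of their own genotype in every case, and KI TAC hearts above WT TAC hearts. The change passed in KI hearts, where mean RPKM rose 1.96-fold (log2 fold change 0.85, SE 0.19, limma adjusted p = 0.0053). It did not pass in WT hearts (log2 fold change 0.37, SE 0.19, limma adjusted p = 0.209) or between the TAC groups (log2 fold change 0.45, SE 0.19, limma adjusted p = 0.124).

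Gclm (chromosome 3, 122245557 to 122270732, plus strand) did not pass in any comparison. It was at 7.48, 9.87 and 7.68 RPKM in the WT sham mice, 10.7, 17.2 and 8.45 in the WT TAC mice, 7.86, 9.53 and 8.06 in the KI sham mice, and 8.20, 8.65 and 15.1 in the KI TAC mice. All groups overlapped, and 1 heart of each TAC group, WT TAC mouse 9 and KI TAC mouse 7, stood above the rest. The log2 fold change was 0.44 in WT hearts (95% interval −0.10 to 0.99, limma adjusted p = 0.273), 0.25 in KI hearts (−0.29 to 0.80, limma adjusted p = 0.501) and −0.16 between the TAC groups (−0.71 to 0.38, limma adjusted p = 0.693). In KI hearts the 95% interval of Gclc, 0.45 to 1.25, overlapped that of Gclm, and a difference between these genes was not tested. Without WT TAC mouse 9 the sign between the TAC groups turned (0.099), and without KI TAC mouse 7 that of the KI difference did (−0.0051). Gclm overlaps Gm6061 on its own strand and Gm17494 on the other.

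Nqo1 (chromosome 8, 107388225 to 107403206, minus strand) encodes the quinone reductase that serves as a standard readout of NRF2 activity in many tissues. It was at 35.1, 31.0 and 27.2 RPKM in the WT sham mice, 28.5, 27.5 and 41.3 in the WT TAC mice, 24.7, 32.7 and 26.8 in the KI sham mice, and 15.5, 30.9 and 36.8 in the KI TAC mice. All 4 groups overlapped, and the scatter was widest after TAC. The log2 fold change was 0.043 in WT hearts (95% interval −0.54 to 0.63, limma adjusted p = 0.939), −0.091 in KI hearts (−0.68 to 0.50, limma adjusted p = 0.839) and −0.28 between the TAC groups (−0.87 to 0.31, limma adjusted p = 0.515). The sign in KI hearts turned with median-ratio scaling (0.039), without KI sham mouse 2 and without KI TAC mouse 5, and the sign between the TAC groups turned without KI TAC mouse 5 (0.078).

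Sod2 (chromosome 17, 13006846 to 13040063, plus strand) encodes the manganese superoxide dismutase of the mitochondrial matrix. It was at 39.1, 33.4 and 32.7 RPKM in the WT sham mice, 21.5, 21.5 and 25.3 in the WT TAC mice, 31.7, 38.2 and 33.9 in the KI sham mice, and 27.3, 35.1 and 31.7 in the KI TAC mice. The WT TAC hearts were below all 9 other hearts, and the KI groups overlapped. In WT hearts mean RPKM after TAC was 0.650 of the sham level, and the log2 value fell by 0.60 (SE 0.17, limma adjusted p = 0.0342). This call held in 6 of the 12 fits that left out 1 mouse and was lost without any WT sham mouse, without WT TAC mouse 7 or 9 and without KI sham mouse 3, with an adjusted p of at most 0.132. In KI hearts the log2 fold change was −0.14 (SE 0.17, limma adjusted p = 0.578), and between the TAC groups it was 0.44 (SE 0.17, limma adjusted p = 0.099). The latter passed with quantile normalization (0.51, limma adjusted p = 0.0406) and with median-ratio scaling (0.60, limma adjusted p = 0.0243).

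Counted by whether the mice of the groups overlapped, 4 of the 9 genes were higher and 2 lower in all WT TAC than in all WT sham mice, against 20% and 15% of all genes tested. In KI mice 5 were higher and 0 lower after TAC, against 13.6% and 24.7%. Between the TAC groups 6 (Nfe2l2, Hmox1, Gclc, Txnrd1, Srxn1 and Sod2) were higher in all KI mice and 0 lower, against 10.1% and 19.4%. The median log2 fold change of the 9 genes was 0.37 in WT hearts, 0.47 in KI hearts and 0.45 between the TAC groups, beside medians of 0.035, −0.10 and −0.12 over all genes tested. Quantile and median-ratio scaling bring the median of all genes near 0 by construction, which raised it by 0.12 with either between the TAC groups and by 0.082 and 0.11 in KI hearts.

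Between the sham groups no difference was detected in any of the 9 genes with 3 mice per group. Log2 fold changes of KI sham against WT sham lay between −0.14 (Nqo1) and 0.11 (Nfe2l2), every limma adjusted p was 1, and no gene was without overlap, against 2.08% of all genes higher and 1.19% lower. The 95% intervals were −0.38 to 0.48 for Hmox1, −0.38 to 0.31 for Txnrd1 and −0.62 to 0.62 for Srxn1. Over all genes 2 passed by limma and 37 (0.329%) had an unadjusted p under 0.05.

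Whether TAC acted more in KI than in WT hearts was tested by the interaction of genotype and surgery. None of the 9 genes passed, and neither did any of the 11240 genes by limma or of the 11231 tested by limma-voom on the recovered reads, while 1668 genes (14.8%) had an unadjusted p under 0.05. Among the 9 genes the unadjusted p was under 0.05 for Hmox1 (difference of log2 fold changes 1.01, SE 0.28, limma adjusted p = 0.157), Srxn1 (1.23, SE 0.41, limma adjusted p = 0.214) and Txnrd1 (0.54, SE 0.23, limma adjusted p = 0.294). The values of Gclc (0.48, limma adjusted p = 0.401), Sod2 (0.46, limma adjusted p = 0.379) and Nfe2l2 (0.37, limma adjusted p = 0.501) were positive, those of Keap1 (−0.34), Gclm (−0.19) and Nqo1 (−0.13) negative. The median over the 9 genes was 0.46, beside −0.13 over all genes.

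RPKM here is per length of all annotated exons of a gene, which ran from 1553 bases for Nqo1 to 10008 for Sod2. A gene whose annotated exons exceed its expressed transcript is understated, so the order of levels between genes is approximate. In WT sham hearts the order by mean RPKM ran from Sod2 (35.0 ± 3.49, SD, n = 3) and Nqo1 (31.1 ± 3.92) over Keap1 (25.9 ± 0.776) and Nfe2l2 (16.8 ± 3.57) to Srxn1 (9.18 ± 0.242), Txnrd1 (8.53 ± 1.20), Gclm (8.34 ± 1.32), Gclc (5.75 ± 0.634) and Hmox1 (2.67 ± 0.199). Of these neighbours Sod2 and Nqo1, Srxn1 and Txnrd1, and Txnrd1 and Gclm overlapped among the mice. In KI TAC hearts Srxn1 had the highest mean (48.4 ± 21.8), followed by Sod2 (31.4 ± 3.96), Nqo1 (27.7 ± 11.0), Nfe2l2 (25.3 ± 0.268), Txnrd1 (25.0 ± 0.694), Hmox1 (21.4 ± 2.59), Keap1 (18.2 ± 5.82), Gclc (11.0 ± 2.53) and Gclm (10.7 ± 3.88). There all neighbours overlapped except Txnrd1 and Hmox1. Hmox1 was the lowest of the 9 in every sham heart of either genotype, whereas in every KI TAC heart it was above Gclc and Gclm.

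NRF2 binds DNA only with a small MAF partner, and the genes of these partners were among 10 listed partners and regulators of NRF2. None of the 10 passed in WT hearts after TAC, Maff and Mafk rose in KI hearts, and Maff was the higher in KI hearts of the TAC groups. Maff was at 5.98, 5.38 and 5.55 RPKM in the WT sham mice, 12.4, 19.8 and 6.64 in the WT TAC mice, 5.30, 7.59 and 5.69 in the KI sham mice, and 63.6, 25.7 and 18.0 in the KI TAC mice. Every TAC heart was above the sham hearts of its genotype, 1 KI TAC heart was far above the others, and the TAC groups overlapped. The log2 fold change was 0.96 in WT hearts (SE 0.39, limma adjusted p = 0.131), 2.17 in KI hearts (SE 0.39, limma adjusted p = 0.00182) and 1.31 between the TAC groups (SE 0.39, limma adjusted p = 0.0476). The last call held in 2 of the 12 fits that left out 1 mouse, those that omitted WT TAC mouse 9 or KI TAC mouse 7, and the log2 fold change was 0.81 when KI TAC mouse 5 was omitted. It was also lost with no minimum (limma adjusted p = 0.0526), with quantile normalization (0.0541) and with median-ratio scaling (0.058).

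Mafk was at 19.0, 18.6 and 22.3 RPKM in the WT sham mice, 41.9, 54.3 and 18.7 in the WT TAC mice, 15.8, 20.0 and 18.9 in the KI sham mice, and 54.9, 40.2 and 43.0 in the KI TAC mice. WT TAC mouse 10 stayed at the sham level while its group mates were high. It was also the lowest of its group for Maff, Mafg and Nnt and for 5 of the 9 genes (Keap1, Gclc, Gclm, Txnrd1 and Srxn1), and the highest for the other 4 (Nfe2l2, Hmox1, Nqo1 and Sod2). Mafk rose in KI hearts by a log2 fold change of 1.28 (SE 0.30, limma adjusted p = 0.00738), against 0.79 in WT hearts (SE 0.30, limma adjusted p = 0.101). Mafg, the remaining small MAF gene, had log2 fold changes of 0.13 in WT and 0.43 in KI hearts and passed in neither. Bach1, Nfe2l1, Cul3, Rbx1, Sqstm1, Btrc and Gsk3b, which encode a competitor at the same elements, a related factor and parts of NRF2 turnover, did not pass in any comparison.

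**Figure D3:**
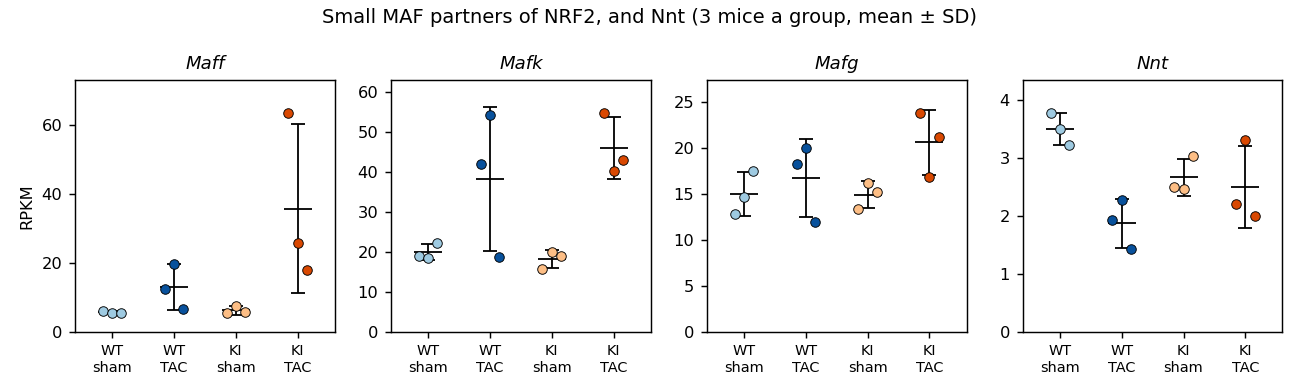
RPKM (vertical axis, from 0) of the small MAF genes Maff, Mafk and Mafg and of Nnt in each of the 12 mice, with points for mice and black bars for the mean ± SD of 3 mice per group. Maff in KI TAC hearts ranges from 18.0 to 63.6, Mafk in WT TAC hearts from 18.7 to 54.3, and Nnt stays under 4 in every heart.

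Of 78 further pathway genes in 7 lists, 76 had a row and 75 were tested. After TAC 6 rose and 5 fell in WT hearts and 9 rose and 4 fell in KI hearts, 3 were higher and 2 lower in KI hearts between the TAC groups, and none passed between the sham groups. These are 14.7%, 17.3% and 6.67% of the 75 genes, beside 11.6%, 23.3% and 11% of all genes tested, and the counts ranged from 4 to 14, from 7 to 16 and from 1 to 7 when 1 mouse was left out. Their median log2 fold change was −0.17 in WT hearts, 0.084 in KI hearts and 0.23 between the TAC groups. With quantile normalization 6 rose and 11 fell in WT hearts, and with median-ratio scaling 7 were higher and 2 lower between the TAC groups. When only the groups compared were fitted, calls lost were Gss, Prdx5, Sod3 and Maff between the TAC groups (limma adjusted p = 0.0526, 0.0516, 0.0814 and 0.139), Akr1b3, Akr1b8, Aldh2 and Ncf1 in WT hearts (0.0506 to 0.0572), and Txn1 and Aox1 in KI hearts (0.0588 and 0.087). In those fits, with calls gained as well as lost after TAC, 4 genes rose and 7 fell in WT hearts, 9 rose and 4 fell in KI hearts, and 1 was lower in KI hearts between the TAC groups. Nox4 and Ugt1a6a were not analysed here.

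Among 16 genes of glutathione synthesis, recycling and use, 0 rose and 1 fell in WT hearts and 3 rose and 1 fell in KI hearts. Gss, the synthetase of the second step, was at a mean of 1.86 ± 0.505 RPKM (SD, n = 3) in WT sham, 1.85 ± 0.216 in WT TAC, 1.89 ± 0.348 in KI sham and 3.80 ± 0.521 in KI TAC hearts. It rose in KI hearts by a log2 fold change of 0.73 (SE 0.16, limma adjusted p = 0.00547) and was 0.75 higher between the TAC groups (SE 0.16, limma adjusted p = 0.0146), a call lost without WT TAC mouse 7. Slc3a2, the heavy chain that pairs with the cystine carrier encoded by Slc7a11, rose by 1.23 in KI hearts (SE 0.25, limma adjusted p = 0.0033). Gpx1, a glutathione peroxidase, rose by 0.91 in KI hearts (SE 0.26, limma adjusted p = 0.0245), a call that held in 8 of the 12 fits that left out 1 mouse. It was lost when KI sham mouse 1 or 3 was omitted, and likewise mouse 6 or 7 of the KI TAC group. Chac1, an enzyme that breaks glutathione down, fell by 1.39 in WT hearts (SE 0.34, limma adjusted p = 0.0174) and by 1.56 in KI hearts (SE 0.34, limma adjusted p = 0.00522). The WT call of Chac1 was lost without WT sham mouse 2 or 3 or WT TAC mouse 7.

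Among 15 genes of the thioredoxin and peroxiredoxin system none passed in WT hearts and 1 rose in KI hearts. That was Txn1, thioredoxin itself and the substrate of the reductase encoded by Txnrd1, at a log2 fold change of 0.70 (SE 0.22, limma adjusted p = 0.0383), which held in 6 of the 12 fits that left out 1 mouse. Those that lost it omitted WT sham mouse 2, WT TAC mouse 7, KI sham mouse 1, KI sham mouse 3, KI TAC mouse 6 or KI TAC mouse 7. Prdx5, a peroxiredoxin, was higher in KI hearts by 0.97 between the TAC groups (SE 0.29, limma adjusted p = 0.0462), with means of 71.8 ± 13.2 and 35.7 ± 2.88 RPKM (SD, n = 3). The Prdx5 call held in only 3 of the 12 fits that left out 1 mouse, those without WT sham mouse 1 or KI sham mouse 1 or 2.

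Among 9 genes of NADPH supply and the pentose phosphate pathway G6pdx, the entry enzyme of that pathway, had a higher level after TAC in WT hearts (log2 fold change 0.73, SE 0.19, limma adjusted p = 0.0227), a call lost without WT sham mouse 2 or 3 and without WT TAC mouse 7 or 10, and none passed in KI hearts. Nnt encodes the mitochondrial transhydrogenase that makes NADPH from NADH, and C57BL/6J mice are known to carry a deletion within this gene. It was at 3.78, 3.50 and 3.21 RPKM in the WT sham mice, 1.92, 2.27 and 1.43 in the WT TAC mice, 2.50, 2.46 and 3.02 in the KI sham mice, and 2.204, 3.30 and 1.99 in the KI TAC mice. Nnt fell in WT hearts by 0.66 (SE 0.17, limma adjusted p = 0.0218), a call lost without any WT sham mouse or without WT TAC mouse 7 or 10. In KI hearts the log2 fold change was −0.081 (SE 0.17, limma adjusted p = 0.759), and it was positive with quantile normalization (0.031), with median-ratio scaling (0.020) and without KI TAC mouse 7 (0.023). All KI sham mice were below all WT sham mice, with a log2 fold change of −0.30 (SE 0.17, limma adjusted p = 1).

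Among 8 further genes of haem and iron handling Tfrc, the transferrin receptor, rose on the log2 scale by 1.88 in WT hearts (SE 0.43, limma adjusted p = 0.0132) and by 1.80 in KI hearts (SE 0.43, limma adjusted p = 0.00914), calls lost without WT sham mouse 3 and KI sham mouse 3 respectively. Slc40a1, the iron exporter ferroportin, fell by 0.82 in KI hearts (SE 0.17, limma adjusted p = 0.00354). Among the 9 detoxification enzymes tested 1 rose and 3 fell in WT hearts and 2 fell in KI hearts. Cbr1, a carbonyl reductase, fell by 0.83 in WT hearts (SE 0.20, limma adjusted p = 0.015) and by 0.67 in KI hearts (SE 0.20, limma adjusted p = 0.0245). Akr1b8, an aldo-keto reductase, rose by 1.04 in WT hearts (SE 0.27, limma adjusted p = 0.0227). Akr1b3 (−0.72, limma adjusted p = 0.029) and Aldh2 (−0.71, limma adjusted p = 0.0472) fell in WT hearts, and Aox1 (−0.63, limma adjusted p = 0.0484) fell in KI hearts. The calls of Cbr1 were lost in WT hearts without WT sham mouse 1 or WT TAC mouse 7 or 9, and in KI hearts without KI sham mouse 2 or 3 or mouse 5 or 7 of the KI TAC group. That of Akr1b8 was lost without WT sham mouse 2 or 3 and without WT TAC mouse 7 or 10, and that of Akr1b3 without any WT sham mouse or WT TAC mouse 7 or 9. Aldh2 passed in 3 of the 12 fits that left out 1 mouse, those omitting KI sham mouse 1 or 2 or KI TAC mouse 5, and Aox1 in 2, those omitting WT TAC mouse 9 or KI TAC mouse 6. The Aox1 call was also lost with no minimum, with a minimum of 5 RPKM, with quantile normalization and with median-ratio scaling (limma adjusted p = 0.0543 to 0.0815).

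Among 8 tested superoxide dismutases, catalase and superoxide-forming oxidases the genes that rose were parts of the phagocyte NADPH oxidase. In WT hearts Cybb (log2 fold change 0.78, limma adjusted p = 0.0118), Ncf1 (0.65, limma adjusted p = 0.0227) and Ncf4 (0.76, limma adjusted p = 0.0049) rose, and in KI hearts Ncf1 (1.00, limma adjusted p = 0.00109) and Ncf4 (0.47, limma adjusted p = 0.0309) did. Between the TAC groups Cybb was lower in KI hearts by a log2 fold change of −0.98 (SE 0.17, limma adjusted p = 0.00706), as was Sod3, the extracellular superoxide dismutase, at −0.96 (SE 0.23, limma adjusted p = 0.0229). The Cybb calls held without any single mouse. The call of Sod3 was lost when mouse 7 or 10 of the WT TAC group, or mouse 5 or 6 of the KI TAC group, was omitted, that of Ncf1 in WT hearts without WT sham mouse 1 or 2 or WT TAC mouse 10, and that of Ncf4 in KI hearts without KI sham mouse 2 or 3 or any KI TAC mouse.

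**Figure D4:**
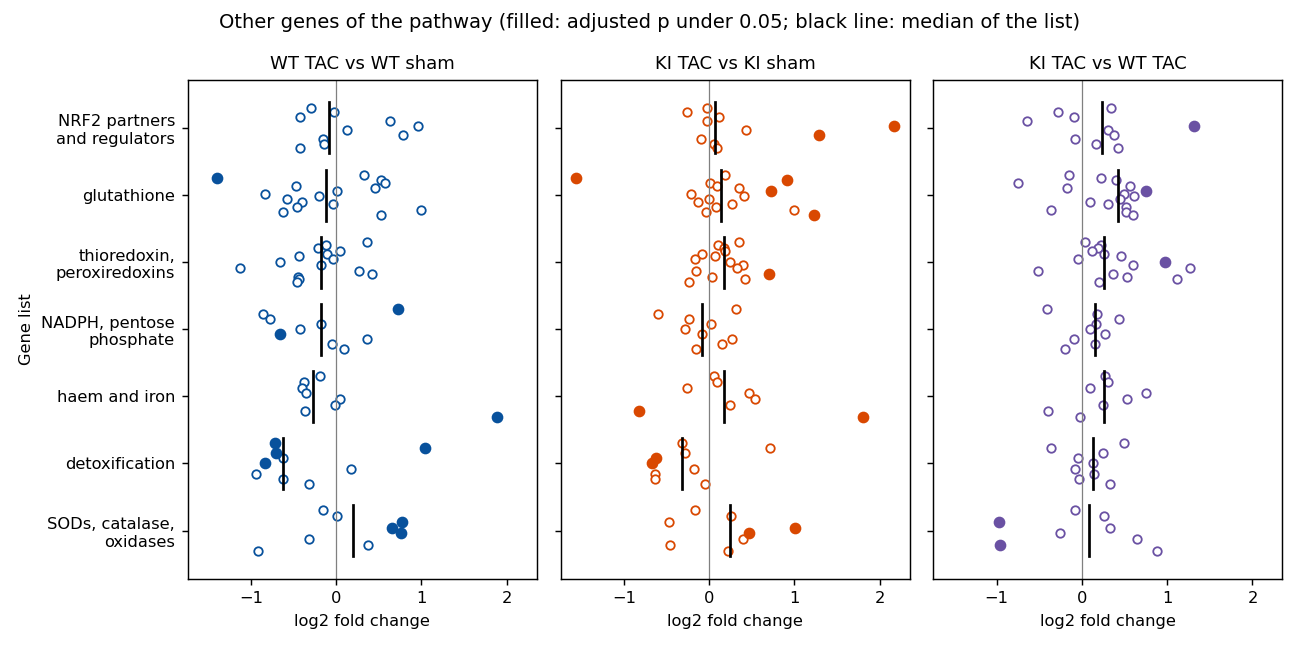
Log2 fold changes on log2(RPKM + 1) (horizontal axis) of the 75 further pathway genes in 7 lists (vertical axis), in 3 comparisons, 1 point per gene, filled for an adjusted p under 0.05, with a black line at the median of each list. Filled points lie on both sides of 0 in each panel, and the medians of the lists are mostly under 0 in WT hearts and all over 0 between the TAC groups.

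All 8 cardiomyocyte markers were detected, and their summed level ranged from 15684 to 21368 RPKM in WT sham, 13510 to 23563 in WT TAC, 17112 to 20650 in KI sham and 16537 to 22956 in KI TAC hearts. The 12 leukocyte markers summed to 75.7 to 123 RPKM in WT sham, 170 to 226 in WT TAC, 82.0 to 109 in KI sham and 116 to 134 in KI TAC hearts, and none was at 0. Of the 11 tested, 8 rose in WT hearts after TAC, against 6.96% of all genes. In KI hearts 6 rose and 1 fell (Csf1r −0.53, limma adjusted p = 0.0419), against 8.57% and 14.7% of all genes. Adgre1 (−0.50) and Lyz2 (0.086) did not pass in KI hearts. All 11 markers in WT hearts and 9 in KI hearts had a positive log2 fold change, the sign of Hmox1, Srxn1, Txnrd1 and the oxidase genes that passed. Leaving out 1 mouse, 3 to 9 passed in WT and 4 to 10 in KI hearts. When the TAC groups were compared, 2 leukocyte markers passed as lower in KI hearts (Adgre1 −1.15, limma adjusted p = 0.0135, and Csf1r −0.91, limma adjusted p = 0.00913) and none as higher, while Hmox1 and Srxn1 were higher there. The list was split, with 6 of the 11 log2 fold changes positive and a median of 0.061. The largest positive values, S100a9 (0.92, limma adjusted p = 0.109) and S100a8 (0.68, limma adjusted p = 0.222), did not pass. Leaving out 1 mouse, the number of leukocyte markers that passed as lower ranged from 0 (without KI TAC mouse 6) to 4 (without KI TAC mouse 7, where 2 others were higher). It was 0 when only those groups were fitted. The part of leukocytes in the results after TAC was not tested.

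Among the other marker lists none of the 5 red cell markers passed after TAC, and their sum ranged from 74.8 to 114 RPKM in WT TAC and 97.7 to 257 in KI TAC hearts, against 145 to 171 and 134 to 244 in the sham groups. When only the groups compared were fitted 2 were lower in WT hearts, and 2 were lower in WT and 3 in KI hearts without KI TAC mouse 7. Between the TAC groups 2 were higher in KI hearts with median-ratio scaling and without KI TAC mouse 5. The 7 fibroblast markers ranged from 147 to 760 RPKM in WT TAC and 101 to 183 in KI TAC hearts, against 122 to 197 and 148 to 256 in the sham groups. Between the TAC groups all 7 had a negative log2 fold change (median −1.12) and none passed, but 4 passed as lower without WT TAC mouse 9 and 1 without KI TAC mouse 7. In WT hearts after TAC none passed either, but 4 were higher without WT TAC mouse 9, and 1 with either scaling, with only the groups compared and without KI TAC mouse 5 or 7. After TAC 1 (Lum) passed in KI hearts, at a log2 fold change of −1.14 (limma adjusted p = 0.0476), but no fibroblast marker did with quantile or median-ratio scaling, with no minimum or in 10 of the 12 fits that left out 1 mouse. The 6 endothelial markers were between 261 and 385 RPKM in all hearts and none passed. Nearest was Pecam1 in KI hearts after TAC (log2 fold change 0.50, limma adjusted p = 0.0502), where 1 endothelial marker was higher with a pseudocount of 0.1, no minimum, a minimum of 5 RPKM, either scaling or limma-voom. Leaving out 1 mouse, 1 was higher without WT TAC mouse 10 or KI sham mouse 1, and 1 was lower without KI TAC mouse 7. Cardiomyocyte markers passed for Myh6, lower in WT hearts after TAC (−1.15, limma adjusted p = 0.0129), for Pln, lower in KI hearts after TAC (−0.93, limma adjusted p = 0.0281), and for Tnni3 (0.95, limma adjusted p = 0.0384) and Myl2 (0.86, limma adjusted p = 0.0447), higher in KI hearts between the TAC groups, as were Hmox1 and Srxn1. Over the 8 markers, 1 log2 fold change was positive in WT hearts after TAC (median −0.59) and 5 in KI hearts (median 0.056). Between the TAC groups 5 were positive (median 0.71), while Actc1 (−0.24), Ryr2 (−0.20) and Pln (−0.28) were negative. The number that passed between the TAC groups, 2, was 0 with quantile normalization, 4 with median-ratio scaling and 0 to 3 without 1 mouse. In WT hearts 2 passed with either scaling and 0 to 3 without 1 mouse, with none without WT TAC mouse 7. No cardiomyocyte marker passed in KI hearts with median-ratio scaling, without any KI sham mouse or without KI TAC mouse 5 or 7. Their part in these results was not tested.

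Finally, the genes most like 4 of the members were ranked by Pearson's r of log2(RPKM + 1) over the 12 mice, which share their groups. Nearest to Nfe2l2 were Sf3b1 (r = 0.93), Clk4, Coq10b, Cebpg and Epc2. Nearest to Hmox1 were Cyb561 (r = 0.98), Tnfaip6, Ch25h, Tpm3 and Sptlc2, and nearest to Txnrd1 were Tnfrsf12a (r = 0.98), Ppme1, Napepld, Tnfaip6 and Kalrn. Tnfaip6 was in both sets, and Hmox1 and Txnrd1 themselves had r = 0.95. Nearest to Gclm were Hand2 (r = 0.93), Fam122a, Noc4l, Dok7 and Tprn, whose highest heart was also in a TAC group. Between Nfe2l2 and its repressor Keap1 r was −0.61, and between Nfe2l2 and Nqo1 it was −0.22. With another pseudocount or scaling, 1 to 5 of the 5 genes nearest to Nfe2l2, 2 to 5 for Hmox1, 1 to 4 for Txnrd1 and 3 to 5 for Gclm stayed among the nearest 5.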

How the data were processed

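Whole-heart poly(A) libraries (strand-specific kit, single reads) of 12 mice gave 1 deposited table. Per the labels, the authors used Trimmomatic 0.39, HISAT2 2.2.1, HTSeq 0.6.1, edgeR 3.18.1, limma 3.32.10 and R 4.1.1 with GRCm38. The unit is not stated. Deposited values multiplied by GENCODE exon length gave whole reads (tolerance 0.02) for 97.2% to 98.0% of low values, against at most 4.98% with a wrong step, and were therefore read as RPKM, scaled to the reads on genes. RPKM already divides out depth, so a few very abundant genes can shift all others. Groups were taken from the labels. limma 3.58.1 (R 4.3.3, eBayes with trend) was fitted to log2(RPKM + 1) over all 12 mice with 4 group means, for the 11240 genes at 1 RPKM or more in 3 mice. Alternatives were a pseudocount of 0.1, no minimum, a minimum of 5 RPKM, quantile and median-ratio scaling, only the groups compared, leaving out each mouse, a replicate block for the sham mice and, chosen after seeing the data, limma-voom on the recovered reads and the same settings for markers and likeness ranks. On simulated data for the WT comparison, 14.7%, 67.5% and 100% of genes changed 1.5-fold, 2-fold and 4-fold were recovered, and 5.46% of the calls were false. The simulation gave every gene the same fixed spread, not estimated from these hearts, and changed only genes with many reads. Its shares are therefore not the power reached in these data. The members and lists were chosen with earlier results of these data known. Named were all members, Nnt, up to 5 called genes per direction of each list by size, and the 5 genes most like Nfe2l2, Hmox1, Txnrd1 and Gclm. P-values set a difference between groups against the spread between mice within groups. In the main fit that spread is pooled over the 4 groups and moderated over genes, so each p-value also depends on mice outside its comparison. Counting error is small at 83 or more reads per value. Adipocyte markers were not analysed here. Sequences are from RefSeq (GRCm38.p6).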

Additional observations from a re-analysis of the deposited data

Results flagged for a closer look

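For 3 genes the change after TAC differed between the genotypes at an unadjusted p under 0.05, and in none did the difference pass after adjustment over all genes. The KI change exceeded the WT change on the log2 scale by 1.01 for Hmox1 (limma adjusted p = 0.157), by 1.23 for Srxn1 (limma adjusted p = 0.214) and by 0.54 for Txnrd1 (limma adjusted p = 0.294). In each of these genes all 3 KI TAC mice were above all 3 WT TAC mice, and the sham groups overlapped. Over all genes 14.8% had an unadjusted p under 0.05 for the same term.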

How the results depend on the processing

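Of the 9 genes, 4 passed in WT hearts, 4 in KI hearts and 2 between the TAC groups. Leaving out 1 mouse, these counts ranged from 2 to 4, from 4 to 5 and from 0 to 3. In WT hearts 3 passed with no minimum and with median-ratio scaling, where Srxn1 was lost. Between the TAC groups 4 passed with quantile normalization, 5 with median-ratio scaling and 1 when only those groups were fitted. The last rests on fewer mice, and for the scalings the cause was not tested. Hmox1 and Txnrd1 in WT hearts and Hmox1, Srxn1, Txnrd1 and Gclc in KI hearts passed under all 19 alternatives, and no gene passed between the sham groups or for the interaction under any. Over all genes 1299 passed in WT hearts (596 to 1525 leaving out 1 mouse, 794 at a minimum of 5 RPKM), 2620 in KI hearts (1453 to 2981, and 1591) and 1242 between the TAC groups (162 to 1822, and 216 when only those groups were fitted). For the interaction 0 to 240 passed, and between the sham groups 2 passed, with 1 at a minimum of 5 RPKM, 5 when only those groups were fitted and up to 4 leaving out 1 mouse.

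Sham mice share replicate numbers between genotypes, and the labels do not state that the numbers pair them. Deviations of same-numbered mice correlated at −0.22, −0.30 and 0.44. Those of WT sham mouse 1 with KI sham mouse 2 correlated at 0.43, and those of WT sham mouse 2 with KI sham mouse 1 at 0.25. A batch shared between the genotypes was not tested. With a replicate block 0 of the 9 genes and 0 of all genes passed between the sham groups. TAC groups share only number 7.

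Some values changed sign. With scaling these were Nqo1 in KI hearts (0.039, median-ratio), Nqo1 in the interaction (0.026, median-ratio), Keap1 (−0.0033, median-ratio) and Srxn1 (−0.0036, quantile, and −0.0083, median-ratio) between the sham groups, and Nnt in KI hearts (0.031, quantile, and 0.020, median-ratio). Leaving out 1 mouse, the ranges that crossed 0 were −0.075 to 0.20 for Nfe2l2 and −0.14 to 0.15 for Nqo1 in WT hearts. In KI hearts they were −0.33 to 0.27 for Nqo1, −0.0051 to 0.40 for Gclm and −0.24 to 0.023 for Nnt. Between the TAC groups they were −0.52 to 0.078 for Nqo1 and −0.42 to 0.099 for Gclm. For the interaction they were −0.37 to 0.22 for Nqo1 and −0.45 to 0.073 for Gclm. Between the sham groups they were −0.067 to 0.21 for Nfe2l2, −0.090 to 0.14 for Keap1, −0.064 to 0.23 for Hmox1, −0.15 to 0.050 for Gclc, −0.051 to 0.14 for Gclm, −0.11 to 0.060 for Txnrd1, −0.049 to 0.031 for Srxn1 and −0.089 to 0.061 for Sod2.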
